A study of Saccharomyces cerevisiae with 4 samples.

Results

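A set of 10 genes of Saccharomyces cerevisiae that act in meiosis and carry an annotated intron were followed in RNA from sorted spores. They are HOP2 (YGL033W), MND1 (YGL183C), DMC1 (YER179W), SAE3 (YHR079C-A), MEI4 (YER044C-A), REC107 (YJR021C), HFM1 (YGL251C), SPO22 (YIL073C), AMA1 (YGR225W) and SPO1 (YNL012W), chosen by name as rows of the count table and not by their values. Earlier results of these data were known when the genes were chosen. They are 10 of the 7132 features in the table and 10 of the 271 nuclear coding genes with an intron in the R64 annotation. All 4 libraries came from 1 diploid strain of the SK1 background, in which the copper-inducible CUP1 promoter drives both copies of IME1, so that adding copper to the sporulation medium induces meiosis. At MATa the diploid carries a cassette in which the spore-autonomous GPD1 promoter drives mCherry, a red fluorescent protein, next to hph, a hygromycin resistance gene. Cultures were sporulated at 30 °C, spores were freed from their asci 7 days after copper was added, and fluorescence-activated sorting divided them into red spores, which inherit the cassette, and non-red spores, which do not. Sporulation and sorting were done in 2 replicates, giving 2 libraries of each color, and the diploid, induction and harvest time were shared by both colors. Color was taken from the sample titles. The strain labels disagree with the titles: they call 3 samples MATalpha, among them both red ones, and only non-red replicate 1 MATa. Reads on hph followed color, with 67902 and 71566 in red replicates 2 and 1, against 972 and 4348 in non-red replicates 2 and 1.

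In meiosis, homologous chromosomes are joined by recombination, which begins with programmed DNA breaks and continues with strand exchange between homologs and the maturation of some exchanges into crossovers. Most genes of budding yeast lack introns, yet several meiotic genes have one, and the splicing of some of these depends on Mer1, a meiosis-specific RNA-binding protein that works with the U1 snRNP protein Nam8 through a short element near the start of the intron. Spores are the dormant products of meiosis and keep RNA made during sporulation.

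In R64 coordinates the coding regions lie on chromosome V (MEI4 from 238460 to 239774 and DMC1 from 548421 to 549517), VII (HFM1 from 27921 to 31636, MND1 from 156543 to 157285, HOP2 from 435625 to 436401 and AMA1 from 945145 to 947019), VIII (SAE3 from 262192 to 262553), IX (SPO22 from 222937 to 225954), X (REC107 from 468555 to 469579) and XIV (SPO1 from 609686 to 611665). The 10 genes hold 11 introns, since HOP2 has 2 and each of the other 9 has 1. From read coverage in these libraries, the study had sorted intron-containing genes into classes. HOP2, MND1, REC107 and AMA1 were in its retained class, DMC1 and SAE3 in the class without obvious retention, and MEI4, HFM1, SPO22 and SPO1 in the ambiguous class. By the study's account, the class without obvious retention takes in poorly covered genes, whose retained introns would probably be missed. Reads were not analysed here, so retention was not measured, and every value below is a total per gene. The introns printed here are those with a Mer1-type word (AMA1, SPO22, HFM1 and REC107), the introns of HOP2 and DMC1, which show donor sites near to and far from the usual letters, and the SAE3 intron, which lacks the branch site letters. They are from the R64 reference, which is S288C, on the transcript strand, 5′ to 3′. The diploid was of the SK1 background, whose own sequence was not examined. Its letters may differ here and in the searches for sites, words and stops below. Capitals mark the 6 bases of the donor site, the Mer1-type word with a following T where there is one, the branch site letters, and the last 3 bases of the intron.
AMA1, chromosome VII, 946328 to 946420, plus strand: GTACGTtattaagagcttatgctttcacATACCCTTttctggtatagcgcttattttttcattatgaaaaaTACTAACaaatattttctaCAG
SPO22, chromosome IX, 225810 to 225899, minus strand: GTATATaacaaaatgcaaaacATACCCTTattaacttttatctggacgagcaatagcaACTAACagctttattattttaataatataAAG
HFM1, chromosome VII, 31427 to 31578, minus strand: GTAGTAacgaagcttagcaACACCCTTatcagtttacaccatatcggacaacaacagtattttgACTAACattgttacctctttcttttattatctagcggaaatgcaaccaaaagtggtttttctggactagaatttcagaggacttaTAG
REC107, chromosome X, 469184 to 469263, minus strand: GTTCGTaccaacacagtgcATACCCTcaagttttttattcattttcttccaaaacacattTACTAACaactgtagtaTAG
DMC1, chromosome V, 548553 to 548644, plus strand: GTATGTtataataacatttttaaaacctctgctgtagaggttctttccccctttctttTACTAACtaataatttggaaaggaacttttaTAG
HOP2 intron 1, chromosome VII, 435680 to 435749, plus strand: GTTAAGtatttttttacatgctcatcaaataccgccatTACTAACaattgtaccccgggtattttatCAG
HOP2 intron 2, chromosome VII, 436313 to 436374, plus strand: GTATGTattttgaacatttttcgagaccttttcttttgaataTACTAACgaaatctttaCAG
SAE3, chromosome VIII, 262355 to 262440, minus strand: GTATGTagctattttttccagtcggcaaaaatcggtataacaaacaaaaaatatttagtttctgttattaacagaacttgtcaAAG

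These introns were short. Their lengths were 70 and 62 bases in HOP2, 83 in MND1, 92 in DMC1, 86 in SAE3, 88 in MEI4, 80 in REC107, 152 in HFM1, 90 in SPO22, 93 in AMA1 and 84 in SPO1. The median was 86.0 bases, against 147.0 for the other 270 introns in 261 genes of the annotation. Short introns were common there too, since 129 of all 281 (45.9%) were under 120 bases.

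The donor site, where the U1 snRNP pairs, read GTATGT in 4 of the 11 introns (36.4%), those of DMC1, MND1, SAE3 and the second of HOP2, and in 201 of the other 270 (74.4%). AMA1 and MEI4 had GTACGT, which 26 of all 281 introns have, and SPO1 had GTAAGT, found in 13. REC107 had GTTCGT, found in 2 of 281. The donors of HFM1 (GTAGTA), of the first HOP2 intron (GTTAAG) and of SPO22 (GTATAT) each occurred once among the 281. No intron of the ambiguous class began with GTATGT, while both introns of the class without obvious retention did. In the retained class, the introns of MND1 and the second of HOP2 did, and those of AMA1, REC107 and the first of HOP2 did not.

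The branch site was sought on the transcript strand as TACTAAC and as its last 6 letters, ACTAAC, which lie within the longer word. TACTAAC was found in 6 of the 11 introns (54.5%), those of AMA1, DMC1, MEI4, REC107 and both of HOP2, and in 226 of the other 270 (83.7%). ACTAAC was found in 10 of the 11 (90.9%) and in 253 of 270 (93.7%). SAE3 had neither word. The absence of these letters says nothing of whether the intron is spliced.

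The Mer1-type word, searched on the transcript strand as ATACCCT or ACACCCT, occurred in 4 of the 11 introns (36.4%) and in 3 of the other 270 (1.1%). SPO22, AMA1 and REC107 had ATACCCT and HFM1 had ACACCCT. Of these, AMA1 and REC107 were in the retained class and HFM1 and SPO22 in the ambiguous class. The other introns with the word were in RPL2A, a ribosomal protein gene, and in YIL177C and YJL225C. With a T required after the word, REC107 no longer matched, which left 3 of the 11 introns (27.3%) and 3 of the other 270 (1.1%). The word is that of Mer1-dependent introns of meiotic genes, so its share among these genes is not an independent finding. A match is a description of the letters and not evidence of regulation.

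If the intron were left in, the reading frame would meet a stop inside the first intron in 9 of the 10 genes, and in 6 of the 10 this stop would come before 10% of the codons. The stop fell at codon 25 of 1187 in HFM1, 21 of 975 in SPO22, 38 of 631 in SPO1, 18 of 219 in MND1, 20 of 214 in HOP2 and 38 of 408 in MEI4. It lay later in REC107 (codon 132 of 314), SAE3 (51 of 91) and AMA1, whose intron is far from the start codon (410 of 593). DMC1 was the exception, with a first stop at codon 91 of 334, beyond the intron. The intron length was divisible by 3 in AMA1, SPO1 and SPO22, and a stop lay inside each of those introns. Upstream of the start codon, the letters GGCGGC, the core of the URS1 site bound by Ume6, a repressor of early meiotic genes, were present on either strand within 250 bases in 5 of the 10 genes (MEI4, DMC1, HOP2, SAE3 and SPO22), against 250 of 6002 coding genes (4.2%).

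**Figure D1:**
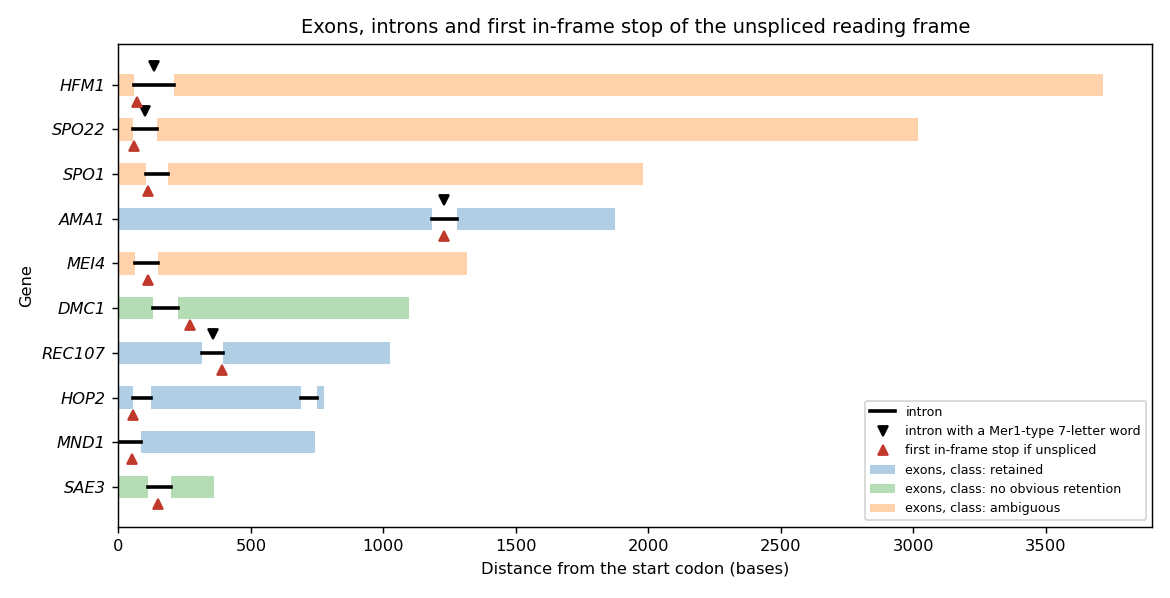
Exons (colored bars), introns (black lines), introns with a Mer1-type 7-letter word (black triangles) and the first in-frame stop of the unspliced frame (red triangles), in bases from the start codon, for the 10 genes, colored by intron class. The first stop lies in intron 1 in 9 genes and beyond the intron in DMC1, and AMA1 has its only intron far into the gene.

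The table gave estimated counts, that is, reads assigned to each gene and often split into fractions. Column totals ran between 27468051 and 35937755 in red spores and between 25493760 and 45697828 in non-red spores. At these depths a detection floor of 3 counts was worth 0.0656 to 0.118 CPM, the unit used below, which scales counts to library size with edgeR's TMM factors. The floor allows for counting error alone, since PCR duplicates cannot be told from separate molecules. All 10 genes passed edgeR's filter on low counts, and none was at 0 in any library. The smallest value was 30.0 reads, for MEI4 in red replicate 2, and the largest 7038, for MND1 in red replicate 1. No other gene of the RefSeq annotation overlaps any of the 10, and no 50-base word of their coding exons occurs elsewhere in the genome. Features of the count table outside that annotation were not checked for overlap. Some values of the 10 were fractional, such as 232.5 and 828.5 for HOP2 in red replicate 2 and non-red replicate 1. The source of these fractions was not tested, so the counts may include shared reads. How strand was treated in counting is not given in the sources used here, so reads running on from convergent neighbors (AGA2 beyond HOP2, ISC10 beyond DMC1 and YNL011C beyond SPO1, at gaps of 168, 206 and 170 bases) cannot be told apart from the genes' own. Among spore markers, SPS100, a spore wall gene expressed late in sporulation, had 2664 ± 502 CPM per kilobase of coding sequence (SD, n = 4). The others were far lower, between 1.48 for SSP1 and 47.7 for CRR1, and the median of the 8 was 11.6. Their sums, 2926 and 2242 CPM in red replicates 2 and 1 and 3388 and 2452 CPM in non-red replicates 2 and 1, were mostly SPS100, and SSP1 was at 0 in both replicate 1 libraries. The markers of dividing cells (CLN1, CLN2, CLB6 and PCL1) summed to 78.2 and 80.2 CPM in red replicates 2 and 1 and to 44.5 and 99.6 CPM in non-red replicates 2 and 1. Of these, CLB6 was at 0 in non-red replicate 1. Per kilobase the dividing-cell markers lay between 4.15 CPM for CLB6 and 26.1 CPM for PCL1. Their median was 14.9, slightly above the 11.6 of the spore markers, of which only SPS100 stood far above all of them. The part of other cells in the results below was not tested.

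Transcripts of all 10 genes were present in spores of both colors. In bulk RNA, fewer spores holding a transcript and less of it per spore cannot be told apart. Levels between genes were compared as CPM per kilobase of coding sequence, averaged over the 4 libraries. MND1 had the highest, 252.1 ± 50.5 (SD, n = 4), and was above 88.0% of the 5780 coding genes tested. DMC1 followed with 118 ± 11.0 and REC107 with 116 ± 37.4, higher than 71.0% and 70.0% of genes. SAE3 had 50.6 ± 17.5, SPO22 39.8 ± 9.86, HOP2 38.4 ± 26.1, AMA1 33.4 ± 5.45, HFM1 28.2 ± 4.93, SPO1 20.9 ± 8.95 and MEI4 9.68 ± 9.08 (each n = 4). MEI4 was above only 2.73% of coding genes, and its mean was 5.94 without non-red replicate 1.

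In this order, MND1 stood above DMC1 without overlap, its lowest library (187.0) exceeding the highest of DMC1 (124.8), and REC107 stood above SAE3 (90.9 against 62.2). Every other pair of neighbors overlapped between libraries. The order was therefore a high group of MND1, DMC1 and REC107, and a lower group in which all neighbors overlapped across libraries, although AMA1 was above HFM1 in each of the 4 libraries taken singly. By intron class, the medians per kilobase were 77.1 for the 4 retained genes, 84.5 for the 2 without obvious retention and 24.6 for the 4 ambiguous genes, and no test was made since the classes were read from the same libraries.

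The median of the 10 genes was 39.1 CPM per kilobase, against 71.9 for all coding genes tested. The 22 other genes listed of meiotic recombination and chromosome structure had a median of 16.1, between 2.24 for ZIP2, a synapsis initiation gene, and 72.5 for HOP1, which encodes a protein of the chromosome axis. MND1, DMC1 and REC107 were thus above HOP1 in mean level. The 257 other intron-containing genes tested had a median of 163.5, between 4.86 for YRF1-6, a subtelomeric helicase gene, and 2103 for RPS30A, a ribosomal protein gene. Among the 267 intron-containing genes tested, MND1 was above 58.4% and the other 9 genes lay below the middle, between 3.0% for MEI4 and 42.3% for DMC1. By the study's account, many ribosomal protein genes contain introns, and they were not set apart in this comparison.

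**Figure D2:**
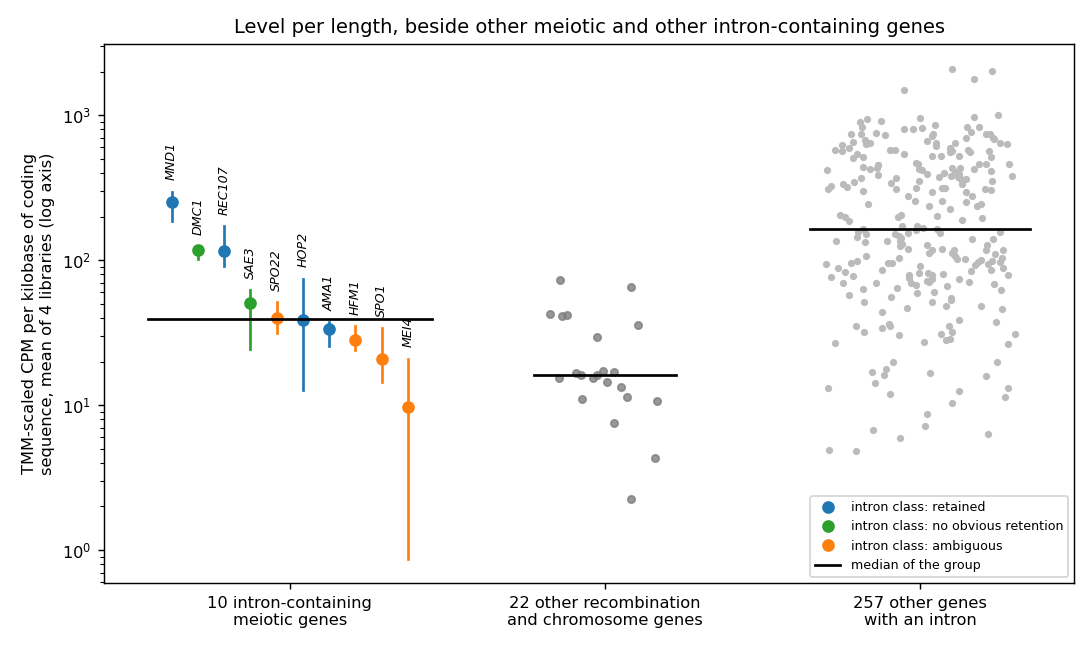
Mean CPM per kilobase of coding sequence over 4 libraries (log axis) for the 10 genes, for 22 other recombination and chromosome genes and for 257 other genes with an intron, with horizontal lines at the medians (39.1, 16.1 and 163.5). Vertical lines on the 10 genes span the lowest and highest library, and MND1 lies above the rest while MEI4 has the widest span.

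Red and non-red spores were compared to ask whether these transcripts are shared equally between spores of the 2 mating types. None of the 10 genes passed the test. In edgeR's likelihood ratio test with the replicate number as a block and Benjamini-Hochberg adjustment over 6140 features, 0 of 10 passed a false discovery rate (FDR) of 0.05, and each had an FDR of 1.0. The background was 1 feature, hph, or 0.0163% of those tested. The sort marker mCherry was not called, though it had 514.0 and 217.2 CPM in red replicates 2 and 1. In non-red replicates 2 and 1 it had 0.0 and 12.5 CPM. At this FDR the study had called mCherry, hph, Mata1 and YAR064W, and it doubted the last. A gene that is not called here is thus not shown to be shared equally. At an unadjusted p under 0.05 the count was 0 of 10, against 279 of 6140. The quasi-likelihood test of edgeR also called 0 of 10 and 0.0163% of all features, and DESeq2 called 0 of 10 and 3.62% of all. Only MND1 had an unadjusted p under 0.05 with DESeq2 (its FDR was 0.177). The median log2 fold change of the 10 genes, red over non-red, was 0.13, with 6 above 0 and 4 below, and that of all features was 0.02. With 1 library left out in turn, and color as the only term since both terms would leave no residual degrees of freedom, 0 of 10 were called each time, while the features called numbered 4 without red replicate 1, 2 without red replicate 2, 29 without non-red replicate 1 and 10 without non-red replicate 2.

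The 2 sporulations were compared next, since the replicate number marks a repeat of sporulation and sorting. It is the only other variable in the labels apart from the strain labels, which disagree with the titles and were not used. Each replicate number stands for 1 round of sporulation and sorting, and its 2 libraries are the 2 colors of that round. The p-values between replicates, here and below, therefore do not measure the spread between sporulations. In the same model, with color as the other term, 0 of 10 genes passed this FDR in the likelihood ratio test of edgeR, against 26.1% of all features tested (750 higher and 854 lower in replicate 2). The quasi-likelihood test called 0 of 10, against 18.8% of all. DESeq2 called 2 of 10, MEI4 and SPO22, against 44.1% of all. At an unadjusted p under 0.05, 1 of 10 passed the likelihood ratio test (MEI4), against 2142 of 6140. Without non-red replicate 2, with replicate as the only term, MEI4 passed (log2 fold change -4.28, replicate 2 over replicate 1, FDR = 0.0178), and without non-red replicate 1 the features called fell to 833. The median log2 fold change of the 10 genes was 0.14 and that of all features was -0.02.

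**Figure D3:**
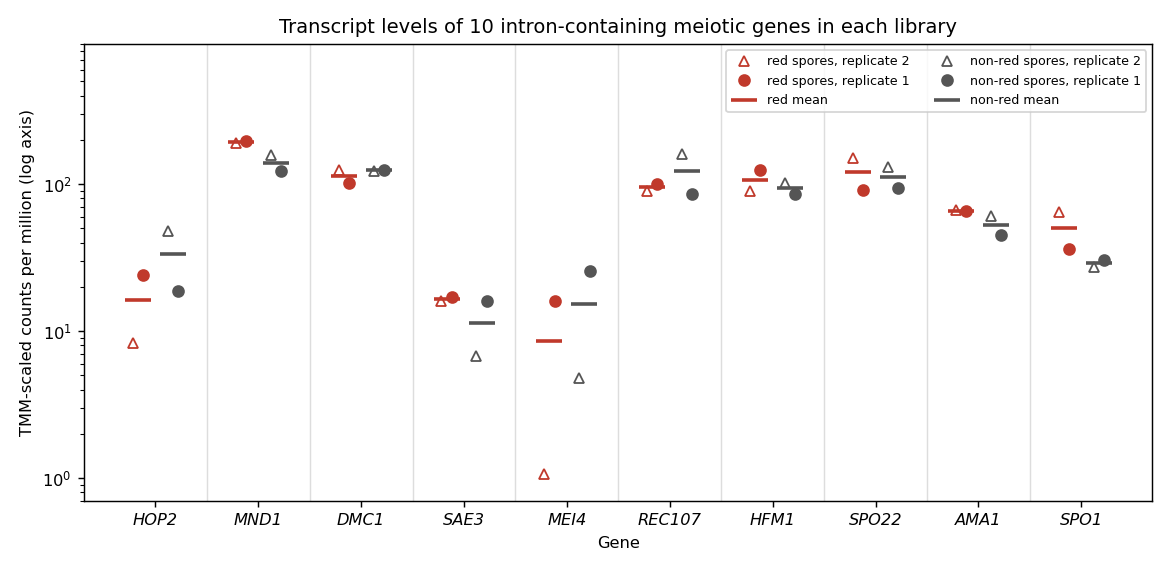
TMM-scaled CPM (log axis) of each gene in each library, red spores left of non-red, with triangles for replicate 2, circles for replicate 1 and bars at the mean of each color (n = 2). DMC1 lies between 102 and 125 CPM in all 4 libraries, whereas MEI4 lies between 1.07 and 25.6 CPM.

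DMC1 encodes the meiosis-specific recombinase that carries out strand exchange between homologs. It had 124.4 and 102 CPM in red replicates 2 and 1, and 123.9 and 125.4 CPM in non-red replicates 2 and 1. It was the steadiest of the 10, with a highest library 1.22 times the lowest, a range that exceeded those of only 3.58% of features tested. The log2 fold change was -0.14 for red over non-red (FDR = 1.0) and 0.13 for replicate 2 over replicate 1 (FDR = 0.819, both edgeR's likelihood ratio test).

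Hop2 and Mnd1 form a complex that assists Dmc1 in strand exchange and in choosing the homolog as partner. MND1 had 189.7 and 195.6 CPM in red replicates 2 and 1, and 157.0 and 123 CPM in non-red replicates 2 and 1. Both red libraries were above both non-red libraries, and the log2 fold change was 0.47 (FDR = 1.0, likelihood ratio test of edgeR), with ratios of 0.27 within replicate 2 and 0.66 within replicate 1.

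HOP2 had 8.25 and 24.1 CPM in red replicates 2 and 1, and 48.1 and 18.8 CPM in non-red replicates 2 and 1. The lowest and the highest library were thus both from replicate 2, and the log2 ratio of red over non-red was -2.52 within replicate 2 and 0.36 within replicate 1. The fitted log2 fold change of -1.09 was smaller than the SD of these ratios, 2.04 (FDR = 1.0, likelihood ratio test of edgeR). It was -2.04 without red replicate 1, -0.47 without red replicate 2 and -0.22 without non-red replicate 2. Per kilobase, MND1 exceeded HOP2 by 22.5 and 7.94 times in red replicates 2 and 1 and by 3.19 and 6.42 times in non-red replicates 2 and 1.

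SAE3 encodes an accessory factor that loads Dmc1 together with Mei5. It had 16.01 and 17.2 CPM in red replicates 2 and 1, and 6.76 and 15.9 CPM in non-red replicates 2 and 1. Non-red replicate 2 stood apart below the other 3 libraries, which lay close together. Both red libraries were above both non-red ones, red replicate 2 only just above non-red replicate 1. The log2 fold change was 0.67 for red over non-red and -0.67 for replicate 2 over replicate 1 (FDR = 1.0 and 0.740, likelihood ratio test of edgeR). Without non-red replicate 2 these values were 0.06 and -0.05, without non-red replicate 1 the color value was 1.29, and without red replicate 2 the replicate value was -1.29. MEI5 was lower than SAE3 per kilobase in every library. SAE3 was 4.54 times MEI5 in both red libraries and 16.1 times in non-red replicate 1, and MEI5 was at 0 in non-red replicate 2.

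MEI4 and REC107 (also called MER2) encode partners that are needed, with Rec114, for Spo11 to make breaks. MEI4 had 1.07 and 15.98 CPM in red replicates 2 and 1, and 4.82 and 25.6 CPM in non-red replicates 2 and 1. As reads these were 30.0 and 575 in red spores and 124 and 1130 in non-red spores, all above the floor of 3. Both replicate 1 libraries were above both replicate 2 libraries, and the highest library was 24.0 times the lowest, a range above that of 92.6% of features tested when features at 0 in a library are ranked as the widest. The log2 fold change of replicate 2 over replicate 1 was -3.15, with ratios of -3.76 in red and -2.38 in non-red spores. The likelihood ratio test of edgeR gave an FDR of 0.0836, its quasi-likelihood test 0.207 and DESeq2 0.000189, so the call depends on the tool. For red over non-red the log2 fold change was -1.42 (FDR = 1.0, likelihood ratio test of edgeR), with an SD of 0.97 between the ratios within replicates. It turned to 0.07 without red replicate 2 and to 0.82 without non-red replicate 1.

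REC107 had 89.9 and 100.0 CPM in red replicates 2 and 1, and 161.7 and 85.9 CPM in non-red replicates 2 and 1. Non-red replicate 2 was the highest and the other 3 libraries lay close together. The log2 fold change was -0.31 for red over non-red (FDR = 1.0) and 0.38 for replicate 2 over replicate 1 (FDR = 0.518, both edgeR's likelihood ratio test). Per kilobase, REC107 was 109 and 8.12 times MEI4 in red replicates 2 and 1 and 43.6 and 4.35 times in non-red replicates 2 and 1. MEI4 and REC114 were nearer in level, with MEI4 at 0.0920 and 0.494 of REC114 in red replicates 2 and 1 and at 0.468 and 0.868 in non-red replicates 2 and 1.

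HFM1 (also called MER3), a DNA helicase, and SPO22 (also called ZIP4), a scaffold protein, belong to the ZMM group, which directs recombination intermediates to crossovers. HFM1 had 90.03 and 125.0 CPM in red replicates 2 and 1, and 101.8 and 85.9 CPM in non-red replicates 2 and 1. The colors overlapped, and the log2 ratio of red over non-red was -0.18 within replicate 2 and 0.54 within replicate 1. The fitted value of 0.18 did not exceed their SD of 0.51 (FDR = 1.0, likelihood ratio test of edgeR).

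SPO22 had 150.5 and 91.6 CPM in red replicates 2 and 1, and 130.7 and 93.6 CPM in non-red replicates 2 and 1. Here the libraries grouped by replicate and not by color, with both replicate 2 libraries above both replicate 1 libraries. The log2 fold change of replicate 2 over replicate 1 was 0.60. The likelihood ratio test of edgeR gave it an FDR of 0.161, the quasi-likelihood test 0.187 and DESeq2 0.00487. Red over non-red it was 0.09 (FDR = 1.0, likelihood ratio test of edgeR). The Spo22 partners Spo16 and Zip2 were lower in RNA level. Per kilobase, SPO22 was 5.13 and 2.13 times SPO16 in red replicates 2 and 1 and 4.90 and 1.15 times in non-red replicates 2 and 1, and ZIP2 was at 0 in red replicate 2 and non-red replicate 1.

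AMA1 encodes a meiosis-specific activator of the anaphase-promoting complex, the ubiquitin ligase that drives the meiotic divisions. It had 66.4 and 65.2 CPM in red replicates 2 and 1, and 60.9 and 45.4 CPM in non-red replicates 2 and 1. Both red libraries were above both non-red libraries, by log2 ratios of 0.12 within replicate 2 and 0.52 within replicate 1 (fitted 0.33, FDR = 1.0, likelihood ratio test of edgeR). Of the other activators, CDC20 fell in replicate 2, with 48.2 and 394 CPM in red replicates 2 and 1 and 54.4 and 486 CPM in non-red replicates 2 and 1 (log2 fold change -3.10, FDR = 5.04e-25, likelihood ratio test of edgeR). CDH1 had 112 ± 12.5 CPM per kilobase and MND2, a subunit that restrains Ama1, 40.2 ± 7.21 (SD, n = 4 each). AMA1 was accordingly 1.42 and 0.170 times CDC20 per kilobase in red replicates 2 and 1 and 1.15 and 0.0959 times in non-red replicates 2 and 1.

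SPO1 encodes a meiosis-specific protein resembling phospholipase B that is needed for sporulation. It had 64.6 and 36.4 CPM in red replicates 2 and 1, and 27.4 and 30.6 CPM in non-red replicates 2 and 1. Both red libraries were above both non-red libraries, and red replicate 2 stood highest. The log2 fold change of red over non-red was 0.75 (FDR = 1.0, likelihood ratio test of edgeR), with ratios of 1.23 within replicate 2 and 0.25 within replicate 1.

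Across the 10 genes, both red libraries were above both non-red libraries in 4 (MND1, SAE3, AMA1 and SPO1), against 10.3% of all features tested, and the reverse held in 0 of 10, against 8.88%. Each of the 4 had an FDR of 1.0 in the likelihood ratio test of edgeR. Both replicate 2 libraries were above both replicate 1 libraries in 1 of 10 (SPO22), against 30.9% of all features, and both replicate 1 libraries were above in 1 of 10 (MEI4), against 31.1%. For MND1, HOP2, HFM1, AMA1 and SPO1 the log2 fold change of replicate 2 over replicate 1 lay between -0.11 and 0.33, with FDRs between 0.732 and 0.971 in the likelihood ratio test of edgeR. The fold between the highest and lowest library had a median of 1.76 over the 10 genes and 2.15 over all 6140 features tested, with the 349 that were at 0 in a library counted as the widest. Added together, the 10 genes had 800.8 and 774 CPM in red replicates 2 and 1 and 823 and 650.4 CPM in non-red replicates 2 and 1.

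**Figure D4:**
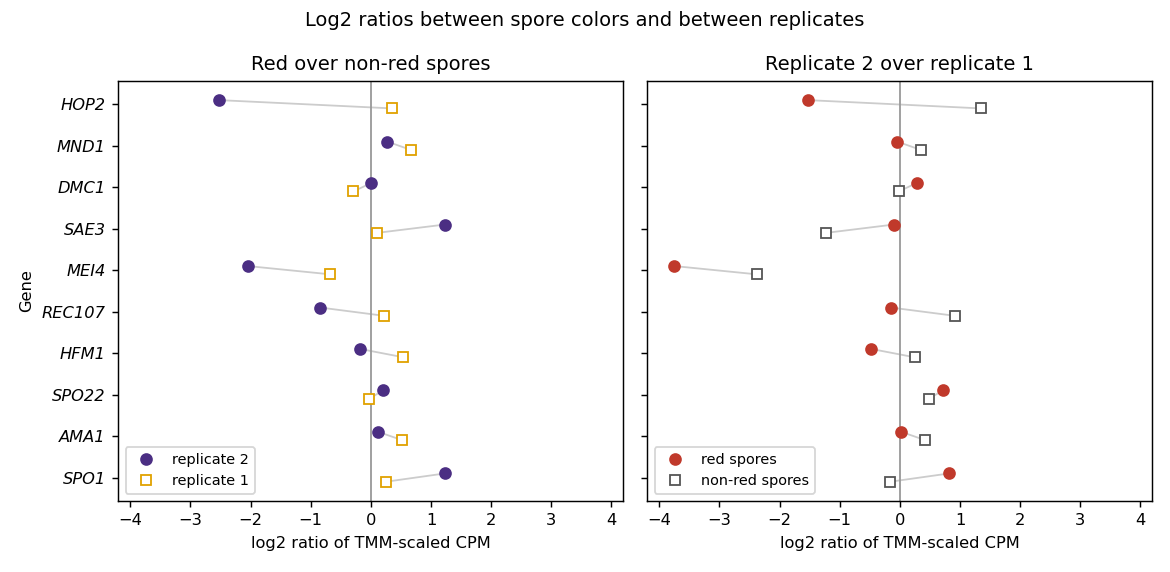
Log2 ratios of TMM-scaled CPM for each gene, red over non-red within each replicate (left) and replicate 2 over replicate 1 within each color (right), each point being 1 pair of libraries. MEI4 lies at -3.76 and -2.38 on the right, and HOP2 lies on opposite sides of 0 in both panels.

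Genes of related function are given for context, for replicate 2 over replicate 1. Of the 22 other recombination and chromosome genes, 0 were higher and 2 lower in replicate 2 past the FDR in the likelihood ratio test of edgeR, against 26.1% of all features called in either direction. The quasi-likelihood test also called 2 and DESeq2 called 6. The 2 were RED1, an axis protein gene (log2 fold change -1.54, FDR = 9.99e-04), and RDH54, a translocase gene (-1.20, FDR = 3.42e-04). The median of the 22 was -1.10, with 3 above 0 and 19 below, and 6 of the 22 were at 0 in at least 1 library. The median of the 10 genes followed here was 0.14, and none was at 0. Between colors 0 of 22 were called by the likelihood ratio test and the quasi-likelihood test and 2 by DESeq2 (MSH4 and MAM1), with 2 at an unadjusted p under 0.05 in the likelihood ratio test. REC102, REC114 and PCH2 of the 22 also have an intron. For replicate 2 over replicate 1 their median was -1.5, with 1 above 0 and 2 below, and none of them was at 0 in a library. None of these 3 was called by the likelihood ratio test, while DESeq2 called 2 (REC102 and REC114). Whether the low median of the 22 is related to introns was not tested.

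Of the Mer1 splicing factors, MER1 itself was low, at 25.45 ± 21.1 CPM per kilobase (SD, n = 4), with 11.6 and 45.8 CPM in red replicates 2 and 1 and 16.9 and 8.35 CPM in non-red replicates 2 and 1. NAM8 had 81.7 ± 18.6 and IST3, a subunit of the RES complex, which retains unspliced RNA in the nucleus, had the highest mean of the 5 at 86.4 ± 53.3, a spread that takes in both NAM8 and PML1 (84.0 ± 27.4, SD, n = 4 each). In neither comparison was any of the 5 called by edgeR's likelihood ratio test or its quasi-likelihood test, 1 had an unadjusted p under 0.05 in each (IST3), and DESeq2 called 1 in each.

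Among the regulators of meiosis, IME1, which the copper-inducible promoter drives here, was higher in replicate 2 (log2 fold change 1.53, FDR = 1.16e-05), while IME2, a kinase gene, and UME6 were lower (-1.80, FDR = 7.05e-05, and -1.30, FDR = 1.32e-04, all edgeR's likelihood ratio test). IME1 had the highest level of the 5, at 1737 CPM per kilobase, and NDT80, which encodes the activator of middle meiotic genes, the lowest at 11.6. Of the 257 other intron-containing genes, 26 were higher and 97 lower in replicate 2 (47.9% called), with a median of -0.37. Among those with the smallest p were the ribosomal protein genes RPS0A (-3.23, FDR = 8.04e-27), RPL26B (-2.96, FDR = 1.96e-16) and RPS16A (-2.43, FDR = 1.8e-14, likelihood ratio test of edgeR), all lower in replicate 2. ASC1, a ribosome-associated protein gene, was lower as well (-2.67, FDR = 3.22e-22). The ribosomal protein genes named have close paralogs between which reads can be split, so their values are uncertain. None of the 10 meiotic genes was called in that comparison by the likelihood ratio test.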

How the data were processed

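Paired-end reads were aligned by the authors with STAR 2.7.3a to the S288C reference (R64), extended by mCherry and hph, and assigned to genes with featureCounts from Subread in its paired setting. Libraries were made from 100 ng of total RNA with a Tecan Universal Plus mRNA-seq kit, while the series text speaks of rRNA-depleted RNA. The deposited values are estimated counts, not normalized, and 61.7% to 69.3% of the non-zero values in a library were fractional. How strand, overlapping genes, multi-mapping reads and PCR duplicates were handled is not given in the sources used here. Counts were rounded to whole numbers. Features were filtered with filterByExpr (6140 of 7132 kept), scaled by TMM and fitted with edgeR 4.0.16 in R 4.3.3 by a generalized linear model with color and replicate number, with the likelihood ratio test, Benjamini-Hochberg adjustment over all features and an FDR threshold of 0.05. This design follows the study's methods. Both color and replicate coefficients were read from the same fit. A prior count of 0.125 was used for fold changes, and ratios between single libraries added 0.125 CPM. The p-values measure only the spread between these 4 libraries.

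Deviations from the color means, on the log2(CPM + 1) scale, were correlated between the red and non-red libraries of a replicate (r = 0.542 across 6140 genes, the same for both numbers by construction), and the numbers mark repeated sporulations and sorts according to the study's methods. The alternatives were the quasi-likelihood test, DESeq2 1.42.0, other normalizations, other filters on low counts, unrounded values, a prior count of 2, no replicate block or no color term, and leaving out each library. In simulated counts with 200 genes changed 4-fold, the likelihood ratio test recovered 79% between colors, with 25 false calls among 183, and 83% between replicates, with 35 false calls among 201, more false calls than the FDR threshold allows. The changed genes were drawn from those with a mean of at least 200 reads. Apart from depth, no other difference between libraries was put in, so these shares may not hold for the real counts. The genes named were the 10 members, MER1 and NAM8, and in each list of related genes those with the highest and lowest level per length and up to 5 past the FDR threshold, of which 1 is not reported here. REC102, PCH2, MSH4, MAM1 and IST3 (for its p-values) and the partner genes beside each member were added to these. The members and lists were chosen with earlier results of these data known. Introns, motifs and coordinates are from the RefSeq annotation of R64, which matched 5989 features of the table, and introns under 20 bases were left out. Tables and figures were made in Python 3.11.15 with pandas 2.3.3, numpy 2.4.6 and matplotlib 3.10.9.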

Additional observations from a re-analysis of the deposited data

Results flagged for a closer look

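In 6 of the 10 genes the replicates moved in opposite directions in the 2 colors, against 27.4% of all features tested. Each value here is the log2 ratio of 1 library over 1 other, so the difference between colors was not tested. HOP2 had -1.53 for replicate 2 over replicate 1 in red spores and 1.35 in non-red spores. REC107 had -0.15 in red and 0.91 in non-red spores. SPO1 had 0.82 in red and -0.16 in non-red spores. HFM1 had -0.47 in red and 0.25 in non-red spores. MND1 had -0.04 in red and 0.35 in non-red spores, and DMC1 had 0.28 in red and -0.02 in non-red spores. In MND1 and DMC1 1 of the 2 ratios was close to 0.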

How the results depend on the processing

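With the replicate block, 1 feature and 0 of the 10 genes were called between red and non-red spores, and without the block the counts were again 1 and 0. DESeq2 called 222 features, scaling by column totals only 5 and a filter of 10 CPM in any library 5. Leaving out 1 library gave between 2 and 29 features. No alternative called any of the 10 genes between colors. Between replicates 1604 features were called, 2706 with DESeq2 and between 833 and 1616 with 1 library left out, and of the 10 genes 0 were called, 2 with DESeq2 and between 0 and 1 with 1 library left out. Scaling moved the median of all genes by less than 0.1 on the log2 scale. Of 130 recomputed fold changes between colors, 6 changed sign, all of them with 1 library left out. These were for MEI4 (range -3.86 to 0.82, with 0.07 also above 0), REC107 (-0.77 to 0.14), HFM1 (-0.08 to 0.41) and SPO22 (-0.29 to 0.40, with -0.12 also below 0). The other genes kept their sign, HOP2 between -2.04 and -0.22, SAE3 between 0.06 and 1.29, SPO1 between 0.33 and 1.13, AMA1 between 0.11 and 0.54, MND1 between 0.29 and 0.64 and DMC1 between -0.28 and -0.03. Of 130 between replicates, 11 changed sign. HOP2 had 0.39 without the color term, and with 1 library left out the ranges were -1.38 to 1.16 for HOP2 (0.56 and 0.22 also above 0), -0.18 to 0.46 for MND1 (-0.02 also below 0), -0.05 to 0.27 for DMC1, -0.05 to 0.80 for REC107, -0.39 to 0.13 for HFM1, -0.04 to 0.46 for AMA1 and -0.29 to 0.95 for SPO1. SAE3 stayed between -1.29 and -0.05 and MEI4 between -4.28 and -2.11. The causes were not tested. Fits with 1 library left out had 1 term, and the lone library of a group was assumed to vary like the others. The 60 recomputed levels moved by less than 1 SD. For those with 1 of 4 libraries left out this was fixed in advance, since the mean cannot move that far. In MEI4 these levels ran between 5.94 and 12.6 CPM per kilobase.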
